A study of Mus musculus with 10 samples.

Results

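Integrins are the receptors by which cells hold on to matrix and to other cells, and tetraspanins are small membrane proteins that organise integrins and their partners in the membrane. The genes of both families were followed here across 4 groups of immortalised mouse marrow progenitors. Members were chosen by symbol in the array's annotation: integrin alpha and beta subunit names (Itga and Itgb), numbered tetraspanin names (Tspan), and the tetraspanins Cd9, Cd37, Cd81, Cd82 and Cd151; Cd63 was also sought, but no probe set carrying it was analysed here. The annotation held 52 such genes on 118 probe sets, where a probe set is the group of short probes that reads 1 transcript. Of these, 46 genes with 84 probe sets had a signal above 369 in at least 3 of the 10 arrays, against 14233 genes measured in all and 45101 probe sets on the array. The 46 genes were 15 integrin alpha subunits, 7 beta subunits, 21 tetraspanins and 3 genes, Itgb1bp1, Itgb1bp2 and Itgb3bp, that follow the naming pattern but encode proteins that bind integrins. The level is a choice of brightness and not of difference between groups, but a gene that is low in most arrays could pass it only through the group where it was high. Counts over the 46 genes are therefore set beside the same share over all genes and are no support of their own. The members nearest the level on the inside were probe sets of Itgb3bp, Cd151 and Itga7, whose signal exceeded 369.1, 441 and 459.9 on no more than 2 arrays. Nearest on the outside were further probe sets of Itgb1, Tspan18 and Itgb3bp, at 362.6, 319.7 and 308.6 by the same measure. No probe set passed for 6 genes: Itga8, Itgb4, Itgb8, Tspan1, Tspan11 and Tspan33 had highest signals of 646, 211, 149.6, 321, 397 and 678 on any array.

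RNA from 10 cultures of primary mouse marrow progenitors was measured on Affymetrix Mouse Genome 430 2.0 arrays. The progenitors had been immortalised by an introduced oncogene: by HoxA9 (3 clones), by HoxA9 together with Meis1 (3 clones), by NUP98-NSD1 (3 clones), a fusion of a nuclear pore protein with a histone methyltransferase, or by MLL-ENL (1 array), a leukaemia fusion of another histone methyltransferase. All 4 groups were derived in medium with stem cell factor and without GM-CSF, and none is an untransformed control. Hoxa9 and Meis1 are a homeobox pair that leukaemias with MLL or NUP98 fusions commonly express, and the comparisons ask how the fusion resembles or departs from HoxA9 with and without Meis1. The labels call the samples clones and do not say whether they came from separate animals or transductions, so p-values measure only the spread between these cultures, which may be technical.

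An integrin is a pair of 1 alpha and 1 beta subunit, and the pair decides the ligand: in blood progenitors Itga4 with Itgb1 holds cells to Vcam1 and fibronectin of the marrow stroma, and the subunits that pair with Itgb2 serve contacts between leukocytes. Talins and kindlins inside the cell switch the pair to its ligand-binding form. Tetraspanins bind laterally to integrins, to immunoglobulin-family partners such as Igsf8 and to the shedding protease Adam10, whose maturation and choice of substrate depend on a subfamily of them called TspanC8.

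The deposited values are linear signals scaled to 1 common level per array, with a trimmed mean of 2500.01 to 2500.02 on each, so the number of arrays and not read depth limits precision. Clones of 1 group correlated with r = 0.931 to 0.962 over genes. The spiked hybridization controls divided the arrays into sets: they averaged 13.18 to 13.42 on the log2 scale on the 6 HoxA9 and HoxA9+Meis1 arrays and 14.01 to 14.13 on the 4 NUP98-NSD1 and MLL-ENL arrays. A comparison of NUP98-NSD1 with either HoxA9 group therefore crosses these sets, and set and oncogene cannot be told apart in it; the other comparisons made here, between the HoxA9 groups and between the fusion groups, lie within a set. One Hoxa9 probe set (1421579_at) read 27259 to 59375 in HoxA9, 89613 to 103499 in HoxA9+Meis1, 6783 to 8481 in NUP98-NSD1 and 6478 with MLL-ENL, while another (1455626_at) was near background in both HoxA9 groups and read 31804 to 36931 and 35209 in the fusion groups. The Meis1 probe set 1450992_a_at read 16.7 to 27.9 in HoxA9, 558 to 687 in HoxA9+Meis1, 4214 to 6267 in NUP98-NSD1 and 10159.6 with MLL-ENL; the labels do not say which part of either gene was introduced. Of the 8 progenitor markers, Kit, Myb, Mpo, Ptprc and Flt3 were above the level of 369 on every array. Cd34, Cd48 and Cd27 were under it on some HoxA9 arrays, and Cd27 also with MLL-ENL (366). The 8 markers summed to at least 245935, with a large part from Mpo and Myb, which read 126200 and 68440 in HoxA9 clone 3.

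All differences below are of log2(signal + 32), the first-named group minus the second, each with its standard error (SE). A gene was called where limma's moderated test gave an adjusted p under 0.05 after Benjamini-Hochberg adjustment over all 14233 genes, two-sided. Where every array of the dimmer group lay under the level of 369, the fold is a lower bound with that group set at the level, written as at least that fold. In bulk RNA, fewer cells of a type and less RNA per cell cannot be told apart.

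Against HoxA9, NUP98-NSD1 clones carried far more Cd9, Tspan13 and Itgb7 and moderately more Itga5, Itga4 and Cd37, and less of 8 tetraspanins led by Tspan15 and Tspan8 and of the broad adhesion subunits Itgb1, Itgb5 and Itgav. The directions of Itga5 and Itgb5 depend on the probe set, as their other passing probe sets went the opposite way without a call. Cd37, Itgav, Tspan2, Tspan8, Tspan18 and Tspan31 were likewise called on only 1 of several passing probe sets. In numbers, 7 of the 46 members were called higher and 11 lower. Called were thus 39.1% of members, where 31.5% of all genes were called (13.3% higher and 18.2% lower). Integrin subunits divided evenly, with 3 of 22 higher and 3 lower, while tetraspanins had 4 of 21 higher and 8 lower. The median difference of the members, -0.14, equalled that of all genes, -0.14. With all genes divided at their median brightness, the dimmer ones had a median difference of -0.40 and the brighter ones -0.01; 25 of the 46 members are among the dimmer genes, as are 7 of the 11 called lower, and the part of brightness in these counts was not tested. With every array shifted to a common median, 7 members were called higher and 8 lower; that scaling moves the median of all genes to 0.05. Among all called genes the share that was higher then went from 42.1% to 64.4%. Leaving out 1 clone at a time gave 5 to 10 higher and 7 to 11 lower: 7 lower without HoxA9 clone 2 or clone 3, and 10 higher without HoxA9 clone 3 as well as without NUP98-NSD1 clone 3.

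HoxA9+Meis1 differed from HoxA9 in fewer members, mainly integrins: Itgb7, Itga1, Itgax and Itga4 were higher, as was the tetraspanin Tspan13. Called higher were 5 of 46 members and called lower 3 (Tspan17, Cd82 and Itgav), that is 17.4% of members beside 9.67% of all genes (4.61% higher and 5.06% lower). By class, 4 integrin subunits of 22 were higher and 1 lower, against 1 and 2 of 21 tetraspanins. The members' median was 0.13 and that of all genes -0.02. All 5 higher calls stood under the common median, and none of the 3 lower calls did, though all 3 kept their direction; the share of higher calls among all genes went from 47.7% to 58.8%. The lower calls also fell to 0 or 1 without any 1 of the 6 clones: 0 without HoxA9 clone 2 or 3 or HoxA9+Meis1 clone 2 or 3, and 1 without HoxA9 clone 1 or HoxA9+Meis1 clone 1.

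Against HoxA9+Meis1, NUP98-NSD1 clones were lower in the same integrins that set HoxA9+Meis1 apart from HoxA9 (Itga1, Itgax, Itgb7 and Itga4) and in Tspan8, Tspan2, Tspan15, Tspan10 and Tspan3, and higher in Cd9, Itgb2, Itga5 and Cd82. Itga5 and Cd82 were called higher on 1 probe set each. The other passing Itga5 probe set differed by -0.02 without a call, and that of Cd82 was called lower (-1.32). The HoxA9+Meis1 arrays serve in both comparisons, so values are given side by side below without weighing one by the other; the NUP98-NSD1 arrays are likewise shared with the comparison against HoxA9. Called were 4 members higher and 14 lower, 39.1% of the 46, where 32.4% of all genes were called (14.2% higher and 18.2% lower). Integrin subunits had 2 of 22 higher and 7 lower, and tetraspanins 2 of 21 higher and 7 lower. The members' median difference was -0.39, that of all genes -0.13. The dimmer genes had a median of -0.34 and the brighter ones 0, and 8 of the 14 members called lower are among the dimmer. Under the common median, 5 members were higher and 10 lower, and the share of higher calls among all genes went from 43.8% to 61.1%. Without NUP98-NSD1 clone 3 the higher calls numbered 8; without any other clone of these groups they were 3 or 4.

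The single MLL-ENL array had more Itga1 than the NUP98-NSD1 clones and less Tspan13, Itga2, Tspan18, Tspan8 and Cd82. These were 1 member called higher and 5 lower, 13.0% of the 46 beside 4.80% of all genes (1.82% higher and 2.98% lower), with medians of -0.04 and -0.02. The test assumes that the lone array varies as the clones of the other groups do. With only the compared groups fitted, 1 call, Tspan13, was left, and the common median gave 2 higher and 2 lower, with a median over all genes of 0.27. Without NUP98-NSD1 clone 2 the lower calls were 2 and without clone 3 they were 7. In the plot of all members' differences, Cd9, Tspan13 and Itgb7 stand farthest to the right against HoxA9.

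**Figure D1:**
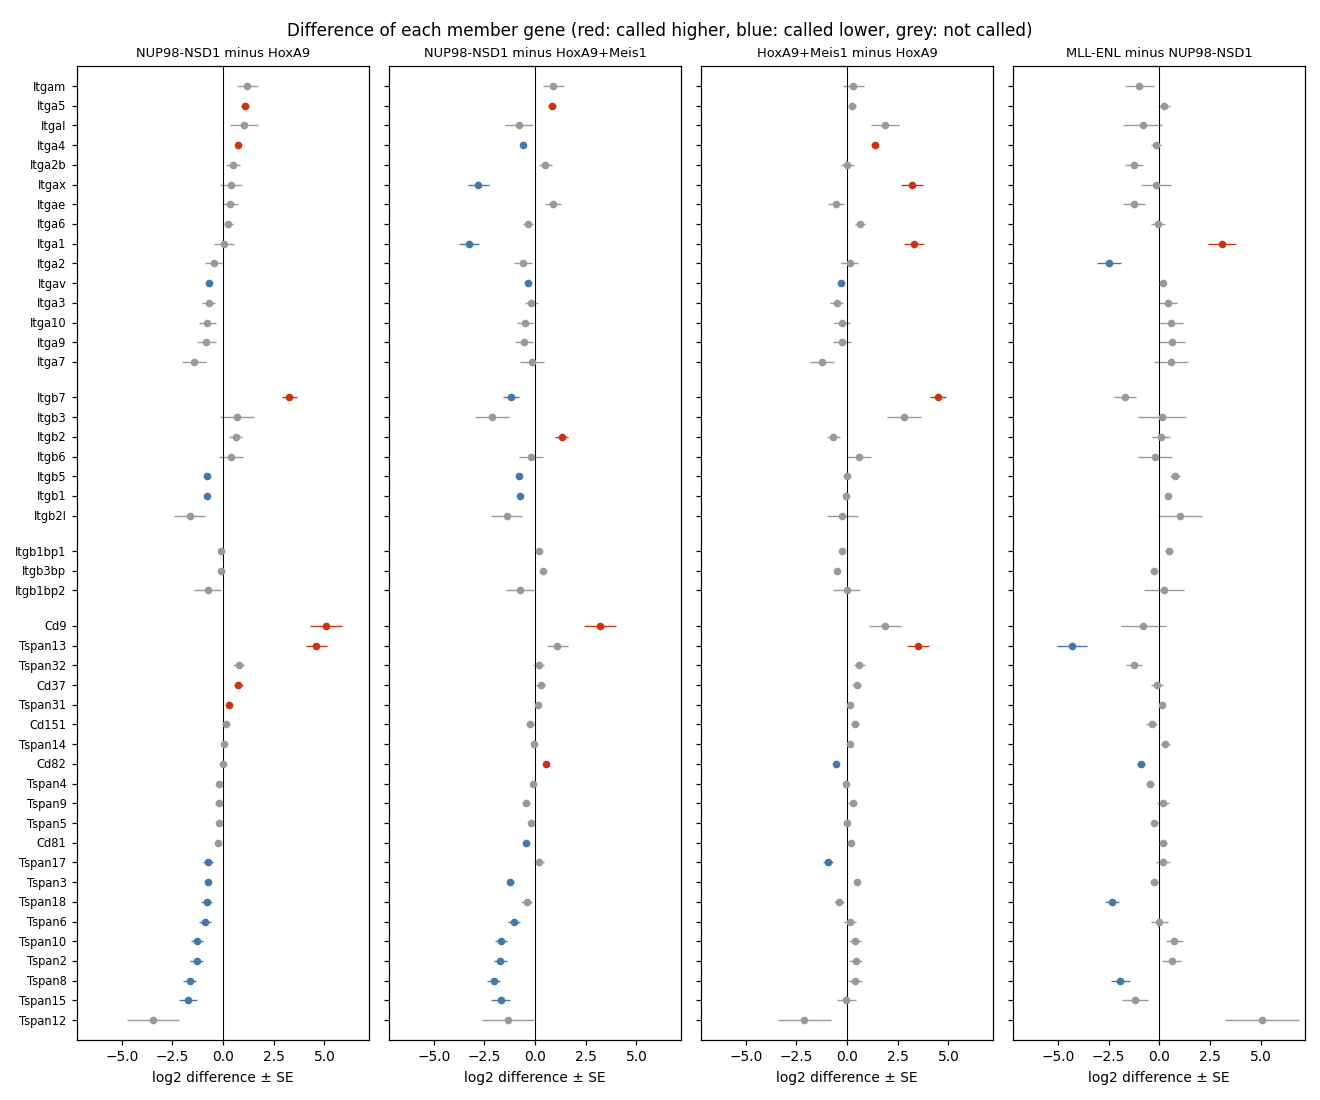
Log2 difference of each of the 46 member genes in the 4 comparisons, with bars of 1 SE on each side; rows are ordered by class (integrin alpha, integrin beta, integrin-binding, tetraspanin) and by the first comparison. Red points were called higher, blue points lower and grey points not called; Cd9 (5.07), Tspan13 (4.60) and Itgb7 (3.28) lie farthest right in the first panel, while Tspan12, with the widest bars, was called in none.

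The promoters of 5 members with large called rises are printed here to show what the motif letters did and did not find in them. Shown are the 250 bases before the annotated start of the 5 genes called higher than in HoxA9, in either other clone group, with a log2 difference of at least 3, from RefSeq on build GRCm38.p6, each written 5′ to 3′ in the direction of its gene. Their positions are chr6:125494761-125495010 on the minus strand for Cd9, chr13:115101965-115102214 on the minus strand for Itga1, chr7:128129300-128129549 on the plus strand for Itgax, chr15:102231936-102232185 on the minus strand for Itgb7 and chr12:36042479-36042728 on the minus strand for Tspan13. Capitals mark matches, on either strand, to 7 motifs that were picked with these sequences in view: the MEIS letters TGACAG, the letters TGATTNAT of HOX with PBX, the PU.1 letters GAGGAA, the GATA-factor letters AGATAA, the box CCAAT, the GC box GGGCGG and the octamer ATTTGCAT.

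The sequences are the following.
Cd9: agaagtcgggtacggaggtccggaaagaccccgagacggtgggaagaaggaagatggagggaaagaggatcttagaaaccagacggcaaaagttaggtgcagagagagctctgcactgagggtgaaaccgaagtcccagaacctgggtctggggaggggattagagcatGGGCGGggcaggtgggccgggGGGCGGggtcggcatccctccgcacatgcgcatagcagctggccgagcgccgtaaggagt
Itga1: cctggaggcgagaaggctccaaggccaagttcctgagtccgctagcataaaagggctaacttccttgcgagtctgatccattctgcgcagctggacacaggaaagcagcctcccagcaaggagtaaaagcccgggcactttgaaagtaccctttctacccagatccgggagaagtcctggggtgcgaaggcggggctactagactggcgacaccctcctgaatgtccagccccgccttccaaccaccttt
Itgax: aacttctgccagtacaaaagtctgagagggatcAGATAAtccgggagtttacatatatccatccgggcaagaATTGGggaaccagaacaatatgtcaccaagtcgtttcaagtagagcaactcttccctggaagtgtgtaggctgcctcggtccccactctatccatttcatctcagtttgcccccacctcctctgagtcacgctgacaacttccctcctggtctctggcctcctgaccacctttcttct
Itgb7: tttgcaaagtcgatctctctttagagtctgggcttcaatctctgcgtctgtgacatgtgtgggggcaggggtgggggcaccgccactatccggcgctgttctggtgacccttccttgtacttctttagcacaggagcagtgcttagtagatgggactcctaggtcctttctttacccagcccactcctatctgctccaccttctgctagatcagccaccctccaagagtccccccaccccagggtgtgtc
Tspan13: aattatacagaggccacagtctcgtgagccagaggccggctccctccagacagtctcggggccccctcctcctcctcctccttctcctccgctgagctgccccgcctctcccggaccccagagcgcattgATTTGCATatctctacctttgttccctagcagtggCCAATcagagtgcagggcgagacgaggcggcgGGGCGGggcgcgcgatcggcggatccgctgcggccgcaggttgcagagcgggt

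Cd9 held 2 GC boxes, 81 and 60 bases before the start, and Tspan13 an octamer, a CCAAT box and a GC box at 120, 85 and 53 bases. Itgax held AGATAA at 217 bases and CCAAT in reverse at 178, and Itga1 and Itgb7 held none of the 7. TGACAG was in none of the 5; it was in 16.0% of the 27025 promoters of the table and in 6 of the 38 members that have an entry there (15.8%). TGATTNAT was in 3.0% of all promoters and in 1 member, Itga9. The other shares, over all promoters and over members, were 23.1% and 28.9% for GAGGAA, 10.3% and 7.9% for AGATAA, 34.5% and 15.8% for CCAAT, 32.9% and 44.7% for GGGCGG, and 1.6% and 5.3% for ATTTGCAT. A match is a description of letters in this window, and no binding was measured.

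Itgb7 is the beta subunit that joins Itga4 to bind Madcam1 and Vcam1 and joins Itgae to bind E-cadherin. Itgb7 signals were 163, 299.9 and 557 in the HoxA9 clones, 10329.8, 7513 and 5215 in HoxA9+Meis1, 3014, 4331 and 2579 in NUP98-NSD1 and 976 with MLL-ENL. All 6 clones of the HoxA9+Meis1 and NUP98-NSD1 groups lay above every HoxA9 clone, and every HoxA9+Meis1 clone lay above every NUP98-NSD1 clone. Itgb7 rose by 4.46 (SE 0.39, adjusted p = 0.000131) in HoxA9+Meis1 and by 3.28 (SE 0.39, adjusted p = 0.000321) in NUP98-NSD1, each against HoxA9. NUP98-NSD1 fell by 1.19 (SE 0.39, adjusted p = 0.041) against HoxA9+Meis1; this call was lost without HoxA9+Meis1 clone 1 (adjusted p = 0.145) or 2 (0.101), without NUP98-NSD1 clone 1 (0.0938) or 3 (0.111), and with the common median (0.06), in the same limma test. MLL-ENL lay below the NUP98-NSD1 clones by a difference of -1.69 (adjusted p = 0.116), which was not called.

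Itga4, the alpha subunit of the Vcam1 and fibronectin receptor of progenitors, followed the same order of groups. Its signals were 8804, 11966 and 10725 in HoxA9, 28596, 28803 and 22887 in HoxA9+Meis1, 20212, 19005 and 14029 in NUP98-NSD1 and 15692 with MLL-ENL. The 3 clone groups did not overlap, and MLL-ENL fell inside the range of NUP98-NSD1. Itga4 rose by 1.35 (SE 0.16, adjusted p = 0.000765) with Meis1 added to HoxA9 and by 0.75 (SE 0.16, adjusted p = 0.00652) in NUP98-NSD1 against HoxA9. All 4 Itga4 probe sets, tested alone, were called higher in both of these comparisons, by 0.91 to 1.35 and by 0.57 to 1.71. Between NUP98-NSD1 and HoxA9+Meis1 the probe sets parted: this one fell by 0.60 (SE 0.16, adjusted p = 0.0171) and 1450155_at fell by 0.51, while 1456498_at and 1421194_at differed by 0.53 and 0.23 without a call, and the mean of all 4 by -0.09 (adjusted p = 0.702). Leaving out HoxA9+Meis1 clone 1 or 2 also ended that call (adjusted p = 0.0621 and 0.0633).

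Among the surface genes of early progenitors, the means of Cd34 and Flt3 stood in the same order of clone groups as Itgb7 and Itga4, and those of Cd48 and Cd27 did not. Cd34 read 97.8, 93.9 and 1845 in HoxA9, 48216, 48720.3 and 50766 in HoxA9+Meis1, 32329.9, 29092 and 12432 in NUP98-NSD1 and 2723 with MLL-ENL, and the receptor tyrosine kinase gene Flt3 read 1047, 702 and 1429.9 in HoxA9, 34997, 30939 and 23470.2 in HoxA9+Meis1, 3128, 4193 and 2227 in NUP98-NSD1 and 709 with MLL-ENL. Cd48 read 2862, 28.9 and 66.8 in HoxA9, 5772, 9101 and 6106 in HoxA9+Meis1, 22265, 26088 and 18394 in NUP98-NSD1 and 1073 with MLL-ENL, and Cd27 read 352, 66.3 and 402 in HoxA9, 7739.6, 10084 and 2553 in HoxA9+Meis1, 7378, 9169.7 and 4610.1 in NUP98-NSD1 and 366 with MLL-ENL; both had their highest mean in NUP98-NSD1. Of the 8 progenitor markers, 4 were called higher in HoxA9+Meis1 and 6 in NUP98-NSD1, each against HoxA9; their summed signal was 245935 to 266124 in HoxA9, 347658 to 360720 in HoxA9+Meis1, 404235 to 427384 in NUP98-NSD1 and 351732 with MLL-ENL. Kit, the stem cell factor receptor, was called in neither. Their part in the Itgb7 and Itga4 results was not tested.

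Itgb1, the common partner of most alpha subunits here, was lower in NUP98-NSD1 than in both other clone groups. It read 11440.5, 11042 and 10192 in HoxA9, 9807, 10951 and 10769 in HoxA9+Meis1, 5774, 6379 and 6589 in NUP98-NSD1 and 8363 with MLL-ENL. Every NUP98-NSD1 clone lay below all 6 HoxA9 and HoxA9+Meis1 clones, which overlapped each other. Itgb1 fell by 0.80 (SE 0.09, adjusted p = 0.000274) against HoxA9 and fell by 0.75 (SE 0.09, adjusted p = 0.000385) against HoxA9+Meis1. All 3 passing Itgb1 probe sets were called lower in NUP98-NSD1 against HoxA9. Against HoxA9+Meis1 2 of them were called lower, while 1427771_x_at differed by -0.08 without a call. That probe set read 3014, 2295 and 2697 in HoxA9, 974, 906 and 787 in HoxA9+Meis1 and 1012, 822 and 698 in NUP98-NSD1. It alone was also called between the HoxA9 groups, with a fall of 1.55 in HoxA9+Meis1. Itgae, the alpha subunit that pairs with Itgb7, read 565, 475 and 598 in HoxA9, 344, 526 and 260.1 in HoxA9+Meis1, 847, 926 and 432 in NUP98-NSD1 and 274 with MLL-ENL on 1447541_s_at. The clone groups overlapped there and no difference was called. Another Itgae probe set, 1449216_at, did not pass the level and was not tested. It read 162, 19.6 and 156 in HoxA9, 56.4, 94.4 and 56.8 in HoxA9+Meis1, 285, 771 and 651 in NUP98-NSD1 and 277 with MLL-ENL.

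**Figure D2:**
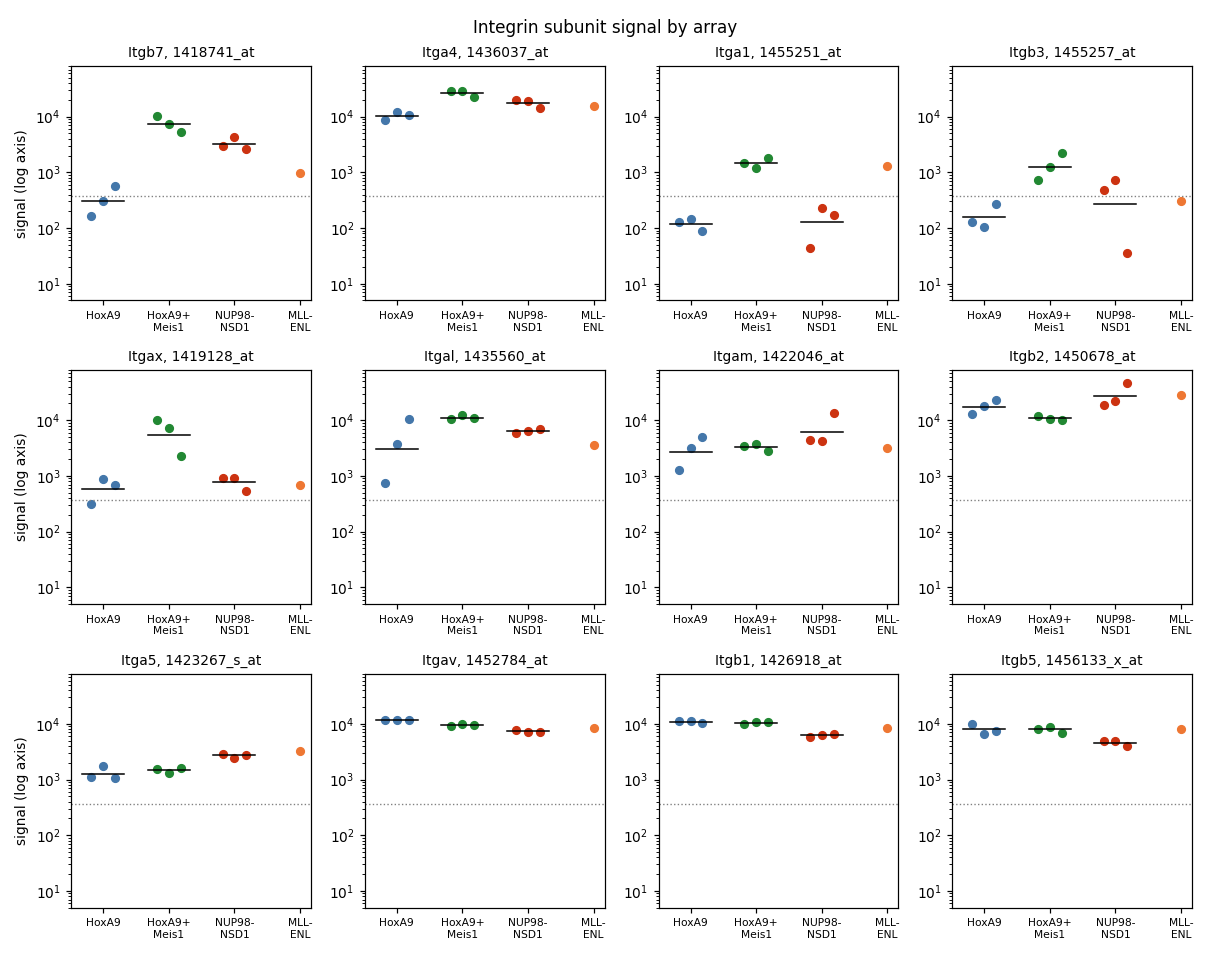
Signal of 12 integrin probe sets on each array (log axis); points are arrays, bars the mean of log2(signal + 32) of a clone group turned back to signal, and the dotted line is the level of 369. Itgb7 and Itga4 separate all 3 clone groups, Itga1 is above the level only in HoxA9+Meis1 and MLL-ENL, and Itgam and Itgb2 have their highest point in NUP98-NSD1 clone 3.

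The collagen receptors are formed by Itga1, Itga2 and Itga10 with Itgb1. Itga1 signals were 128, 148 and 90.0 in HoxA9, 1450, 1191 and 1826 in HoxA9+Meis1, 43.4, 225 and 171 in NUP98-NSD1 and 1322 with MLL-ENL. Only the HoxA9+Meis1 clones and the MLL-ENL array exceeded the level of 369, and neither overlapped the other groups. It was at least 3.74-fold higher in HoxA9+Meis1 than in HoxA9, with a log2 difference of 3.30 (SE 0.50, adjusted p = 0.00276) and at least 3.37-fold higher with MLL-ENL than in NUP98-NSD1, with a log2 difference of 3.10 (SE 0.70, adjusted p = 0.0351). The second Itga1 probe set, 1439713_at, was called higher in HoxA9+Meis1 too, by 2.79, at least 1.54-fold, with signals of 510.4, 488 and 805 there and 692 with MLL-ENL. The MLL-ENL call was lost with quantile normalization (adjusted p = 0.0595), an offset of 1 (0.051), a filter at the 60th percentile (0.0551) and with only the compared groups in the model (0.219). Itga1 fell by 3.25 (SE 0.50, adjusted p = 0.00109) in NUP98-NSD1 against HoxA9+Meis1, at least 3.74-fold.

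Itga2 was near the level in all clone groups, with 384, 585 and 752 in HoxA9, 679, 761 and 441 in HoxA9+Meis1, 626, 280 and 345 in NUP98-NSD1 and 44.6 with MLL-ENL. The clone groups overlapped, and the MLL-ENL array lay below all of them. It fell by 2.48 against NUP98-NSD1 (adjusted p = 0.0452), a bound of at least 1.06-fold; the call was lost without NUP98-NSD1 clone 1 (0.0822) or clone 2 (0.0555) and with quantile normalization (0.0511), the common median (0.0599), an offset of 100 (0.0846), no filter (0.0557) and the compared groups alone (0.269). Itga10 ranged from 204 to 898 over the 10 arrays with no call.

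Fibronectin and vitronectin are bound by Itga5 with Itgb1 and by Itgav with Itgb1, Itgb3, Itgb5 or Itgb6. Itga5 read 1099, 1728 and 1075 in HoxA9, 1535, 1336 and 1622 in HoxA9+Meis1, 2904, 2434 and 2799 in NUP98-NSD1 and 3197 with MLL-ENL, so that all 4 arrays with a fusion lay above the 6 others. It rose by 1.07 (SE 0.21, adjusted p = 0.00398) against HoxA9 and by 0.84 (SE 0.21, adjusted p = 0.0119) against HoxA9+Meis1. These values come from 1423267_s_at; the other probe set, 1423268_at, read 1550.5, 1322 and 1945 in HoxA9, 886, 1224 and 1376 in HoxA9+Meis1, 1472, 827 and 1181 in NUP98-NSD1 and 906 with MLL-ENL. The NUP98-NSD1 clones overlapped both other clone groups there and differed by -0.48 (adjusted p = 0.2) and -0.02 (adjusted p = 0.969), below 0 in both comparisons. The Itga5 calls therefore rest on 1 of its 2 probe sets.

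Itgav declined from group to group: it read 11820.1, 11592 and 11951 in HoxA9, 9012, 9987 and 9515 in HoxA9+Meis1, 7849, 7158 and 7166 in NUP98-NSD1 and 8488 with MLL-ENL, with no overlap among the clone groups. Itgav fell by 0.67 (SE 0.08, adjusted p = 0.000379) in NUP98-NSD1 and fell by 0.31 (SE 0.08, adjusted p = 0.042) in HoxA9+Meis1, both against HoxA9, and fell by 0.36 (SE 0.08, adjusted p = 0.00846) in NUP98-NSD1 against HoxA9+Meis1. The first difference kept its call except in the mean of its probe sets (-0.56, adjusted p = 0.0883). The HoxA9+Meis1 call was lost without each of the 6 clones in turn (adjusted p 0.0742 to 0.158), with quantile normalization (0.0501), the common median (0.359) and the clone number as a block (0.0845), and the mean of its probe sets turned to 0.19 (adjusted p = 0.76). The difference from HoxA9+Meis1 was lost with the common median (0.289).

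Itgb5, which pairs only with Itgav, read 9969, 6653 and 7598 in HoxA9, 8254, 8727 and 6973 in HoxA9+Meis1, 4917, 4984 and 3978 in NUP98-NSD1 and 7949 with MLL-ENL on 1456133_x_at. The NUP98-NSD1 clones lay below all other arrays there, and Itgb5 fell by 0.79 (SE 0.16, adjusted p = 0.00523) against HoxA9 and fell by 0.78 (SE 0.16, adjusted p = 0.00492) against HoxA9+Meis1. Its other 3 probe sets went the other way against HoxA9, by 0.57 to 0.70 with no call, so the direction of Itgb5 depends on the probe set; without probe sets of the _x_at, _s_at and _a_at kinds it was 0.70 against HoxA9 and 0.24 against HoxA9+Meis1. On those 3 probe sets the MLL-ENL array was the highest of the 10, with 9047, 5534 and 4668; on 1456195_x_at, where NUP98-NSD1 read 1532, 1535 and 1942, it was called higher than NUP98-NSD1, by 1.47.

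Itgb3, the partner of Itgav and of the platelet subunit Itga2b, was brightest in HoxA9+Meis1. Itgb3 signals were 127, 104 and 273 in HoxA9, 736, 1224 and 2252 in HoxA9+Meis1, 492, 734 and 35.6 in NUP98-NSD1 and 302 with MLL-ENL. The HoxA9+Meis1 clones lay above all HoxA9 clones, and NUP98-NSD1 clone 2 came within a few units of the lowest of them. The difference from HoxA9 was 2.79 (SE 0.83, adjusted p = 0.0655), at least 3.24-fold, and not called. The second probe set, 1421511_at, with 62.4, 109 and 97.3 in HoxA9, 639.8, 872 and 1047 in HoxA9+Meis1, 291, 221 and 231 in NUP98-NSD1 and 94.5 with MLL-ENL, showed no overlap of HoxA9+Meis1 with any other array and was called in both comparisons: 2.86 (SE 0.43, adjusted p = 0.00311) against HoxA9, at least 2.16-fold, and a difference of -1.64 for NUP98-NSD1 against HoxA9+Meis1, at least 2.16-fold lower. Among all probe sets tested alone, 6.89% were called between the HoxA9 groups and 30.9% between NUP98-NSD1 and HoxA9+Meis1.

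Itga2b, the alpha subunit of the platelet fibrinogen receptor and also a gene of early progenitors, read 2768, 3245 and 2823 in HoxA9, 3076, 2737 and 2997 in HoxA9+Meis1, 6651, 4925 and 2171 in NUP98-NSD1 and 1720.1 with MLL-ENL. NUP98-NSD1 clones 1 and 2 lay above all other arrays, clone 3 below the HoxA9 clones, and no difference was called. The platelet chemokine Pf4 had the same order within NUP98-NSD1, with 9629.5, 7324 and 1833, as did the platelet glycoprotein gene Gp9 with 1053, 663 and 151, and 7 of the 8 megakaryocyte markers were lowest in clone 3; the 8 megakaryocyte markers on the array summed to 4043 to 15579 in NUP98-NSD1 and 6151 to 6260.5 in HoxA9. Pf4 made up a large part of the highest sum. Of the 5 markers that passed the level, 1 was called higher and 1 lower against HoxA9, with a median difference of -0.98. Gp1bb, Gp5 and Treml1 had means of 790, 884 and 735 in NUP98-NSD1, below their 1584, 1673 and 1344 in HoxA9. Pf4 (6262 against 704) and Gp6 (790 against 653) had higher means in NUP98-NSD1. The part of these markers in the Itga2b values was not tested. Itgb6, an epithelial partner of Itgav, stayed between 77.5 and 506 on all arrays with no call.

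Laminin is bound by Itga3, Itga6 and Itga7, and Itga9 binds matrix proteins and Vcam1. Itga6 read 5631, 8197 and 12879.7 in HoxA9, 13271, 13191 and 12800 in HoxA9+Meis1, 11375, 10729 and 8519 in NUP98-NSD1 and 9602 with MLL-ENL on 1422445_at, where nothing was called. On 1422444_at it read 3501, 5257 and 8348 in HoxA9, 8284, 7634 and 8773 in HoxA9+Meis1, 19688, 18836 and 12178 in NUP98-NSD1 and 13800.2 with MLL-ENL, with every NUP98-NSD1 clone above all HoxA9 and HoxA9+Meis1 clones. Tested alone, it rose by 1.62 (SE 0.27, adjusted p = 0.00197) against HoxA9 and by 1.01 (SE 0.27, adjusted p = 0.0188) against HoxA9+Meis1, where the first probe set differed by 0.27 and -0.37. Against HoxA9, 29.0% of all probe sets tested alone were called. Itga3, Itga7 and Itga9 were dim, with no signal above 1280.1 on any array, and none was called; Itga3 and Itga7 in NUP98-NSD1 lay below every HoxA9 clone, with differences of -0.70 (adjusted p = 0.12) and -1.42 (adjusted p = 0.0935), the latter at least 1.28-fold lower.

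The subunits that pair with Itgb2 form the leukocyte integrins: Itgal for Icam binding and cell contact, Itgam for complement fragments and Icam1, and Itgax, the CD11c antigen of dendritic cells and macrophages. Itgax signals were 313, 885 and 680.3 in HoxA9, 9914, 7384 and 2274 in HoxA9+Meis1, 907, 912 and 539 in NUP98-NSD1 and 679 with MLL-ENL. The HoxA9+Meis1 clones lay above all others, and their clone 3 was the lowest of them. Itgax rose by 3.19 (SE 0.53, adjusted p = 0.00469) against HoxA9, or 3.82 without HoxA9+Meis1 clone 3 and 2.76 without clone 1. NUP98-NSD1 fell by 2.80 (SE 0.53, adjusted p = 0.00346) against HoxA9+Meis1, with differences of -3.43 and -2.38 without those clones.

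Genes of dendritic cells and monocytes stood beside Itgax as follows. The plasmacytoid dendritic cell gene Siglech read 2207, 2389 and 569 and the invariant chain Cd74 1681, 2147 and 783 in HoxA9+Meis1 clones 1, 2 and 3, and the macrophage growth factor receptor Csf1r read 22191, 31553 and 6953; these 3 genes, chosen after their values were seen, were lowest in clone 3, as was Itgax. Clone 3 was the lowest of the 3 clones in 7 of the 10 dendritic cell markers and in 7 of the 9 monocyte markers on the array; Adgre1 (2068, 3002 and 3482) and Ccr2 (35688, 35491 and 37158) were highest there, and H2-Aa (112, 516 and 182) and Zbtb46 (1039, 318 and 550.3) were lowest in another clone. The 10 dendritic cell markers summed to 13411 to 24368 in HoxA9+Meis1 and 10013 to 11906 in HoxA9, and the 9 monocyte markers on the array to 116829 to 160303 and 66385 to 79528. Called higher between these groups were 1 of 8 measured dendritic markers and 3 of 9 monocyte markers, and 0 lower, beside 9.67% of all genes. Tcf4, the brightest dendritic marker, read 14171, 12973 and 8117 in HoxA9+Meis1 and 4027, 3746 and 3562 in HoxA9. H2-Aa read 555, 728 and 757 in HoxA9, above every HoxA9+Meis1 clone. Of the dendritic markers, H2-Ab1 and Ccr7 were below the level on every array. Their part in the Itgax result was not tested.

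Itgal varied most among the HoxA9 clones, with 748, 3729.8 and 10384, while HoxA9+Meis1 read 10430.4, 12322 and 10914, NUP98-NSD1 5837, 6489 and 7018 and MLL-ENL 3619.7. HoxA9 clone 1 was the lowest array of all and HoxA9 clone 3 nearly reached the HoxA9+Meis1 clones. The difference of 1.84 (adjusted p = 0.136) between the HoxA9 groups was not called although no clones overlapped. Itgam read 1254, 3178 and 4908 in HoxA9, 3502, 3757 and 2837 in HoxA9+Meis1, 4355, 4244 and 13289 in NUP98-NSD1 and 3169 with MLL-ENL, and its partner Itgb2 read 12727, 17876 and 23555 in HoxA9, 11853, 10589 and 10274 in HoxA9+Meis1, 19123, 21738 and 47055 in NUP98-NSD1 and 28389.9 with MLL-ENL. In both, NUP98-NSD1 clone 3 was the highest array and clones 1 and 2 were nearer to each other than to it. Itgb2 rose by 1.31 (SE 0.31, adjusted p = 0.0101) in NUP98-NSD1 against HoxA9+Meis1, where every NUP98-NSD1 clone was higher; against HoxA9 neither was called (0.62 and, for Itgam, 1.20).

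The neutrophil granule gene Camp also peaked in that clone, with 6886, 6798 and 91350.2 in NUP98-NSD1 clones 1, 2 and 3 and at most 117 on the other arrays. Clone 3 was the highest of the NUP98-NSD1 clones in 9 of the 10 neutrophil markers. These summed to 440285 to 995235 in NUP98-NSD1, 16576 to 85784 in HoxA9, 11047 to 95914 in HoxA9+Meis1 and 22096 with MLL-ENL, and 8 of the 10 were called higher in NUP98-NSD1 against each HoxA9 group. Their part in the Itgam and Itgb2 values was not tested. Itgb2l, a close relative of Itgb2, had no call on its brightest probe set, 1433053_at, at 38.7 to 1162 over the arrays. NUP98-NSD1 differed there by -1.64 from HoxA9 and by -1.40 from HoxA9+Meis1, and its clone 3 was lowest, at 38.7. Another probe set, 1449829_at, went the opposite way. It read 978, 963 and 2899.6 in NUP98-NSD1, highest in clone 3, and 491, 160 and 407 in HoxA9+Meis1. Tested alone, it rose by 2.02 (SE 0.49, adjusted p = 0.0109) against HoxA9+Meis1. The direction of Itgb2l therefore depends on the probe set. Of the genes for integrin-binding proteins, none was called in any comparison: Itgb3bp, which binds the Itgb3 tail, differed by -0.49 (adjusted p = 0.0521) between the HoxA9 groups and by 0.39 (adjusted p = 0.0518) for NUP98-NSD1 over HoxA9+Meis1, Itgb1bp1 read between 4337 and 7284 on all arrays, and the muscle gene Itgb1bp2 between 46.6 and 552.

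Cd9 is a tetraspanin partner of Igsf8 and of Itgb1 integrins, found on platelets, mast cells and stem cells. Cd9 signals were 105, 108 and 46.8 in HoxA9, 56.1, 654 and 1152 in HoxA9+Meis1, 4636, 4421 and 2701 in NUP98-NSD1 and 2199 with MLL-ENL. All 4 fusion arrays lay above all 6 others, and HoxA9+Meis1 clone 1 was as dim as the HoxA9 clones while clones 2 and 3 passed the level. Cd9 was at least 9.58-fold higher in NUP98-NSD1 than in HoxA9, with a log2 difference of 5.07 (SE 0.79, adjusted p = 0.00128) and rose by 3.21 (SE 0.79, adjusted p = 0.012) against HoxA9+Meis1. The latter value was 2.09 without HoxA9+Meis1 clone 1 and 3.97 without clone 3, and stayed called. HoxA9+Meis1 against HoxA9 gave 1.85 (adjusted p = 0.197), at least 1.03-fold, with overlap.

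Tspan13 read 329, 557 and 231 in HoxA9, 2455, 7031 and 4551 in HoxA9+Meis1, 15578, 12179.9 and 4141 in NUP98-NSD1 and 437 with MLL-ENL. HoxA9 and MLL-ENL were dim and the other groups bright, without overlap between them. Tspan13 rose by 4.60 (SE 0.52, adjusted p = 0.000242) in NUP98-NSD1 and by 3.50 (SE 0.52, adjusted p = 0.00268) in HoxA9+Meis1, both against HoxA9, and fell by 4.30 (SE 0.74, adjusted p = 0.0117) with MLL-ENL against NUP98-NSD1. The second probe set, 1460239_at, was called in the same 3 comparisons and directions, with 9521, 9759 and 3227 in NUP98-NSD1 and 407 with MLL-ENL. NUP98-NSD1 and HoxA9+Meis1 overlapped, with a difference of 1.10 (adjusted p = 0.13). Over probe sets tested alone, 3.98% of all were called between MLL-ENL and NUP98-NSD1.

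All 10 mast cell and basophil markers were lowest in clone 3 among the NUP98-NSD1 clones: the protease gene Cpa3 read 96364, 94796 and 33297 in clones 1, 2 and 3, with clone 3 lowest as in Cd9, Tspan13, Itga4 and Itgb7, and the histamine-forming enzyme gene Hdc read 27230.4, 30195 and 9374. Of the other members called higher against HoxA9, Cd37 was highest in clone 3, and Itga5 and Tspan31 were lowest in another clone. The median signal over all probe sets was also lowest in clone 3, at 455 against 638 and 558 in clones 1 and 2. The 10 mast cell and basophil markers summed to 64149 to 319998 in NUP98-NSD1, 7879 to 12466 in HoxA9, 17129.6 to 26615 in HoxA9+Meis1 and 4481 with MLL-ENL, and 9 of 10 were called higher in NUP98-NSD1 than in HoxA9. Of these 10 markers, 0 were called between the HoxA9 groups, beside 9.67% of all genes. With MLL-ENL against NUP98-NSD1, 6 were called lower and 0 higher, beside 4.80% of all genes. Their part in the NUP98-NSD1 values was not tested.

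**Figure D3:**
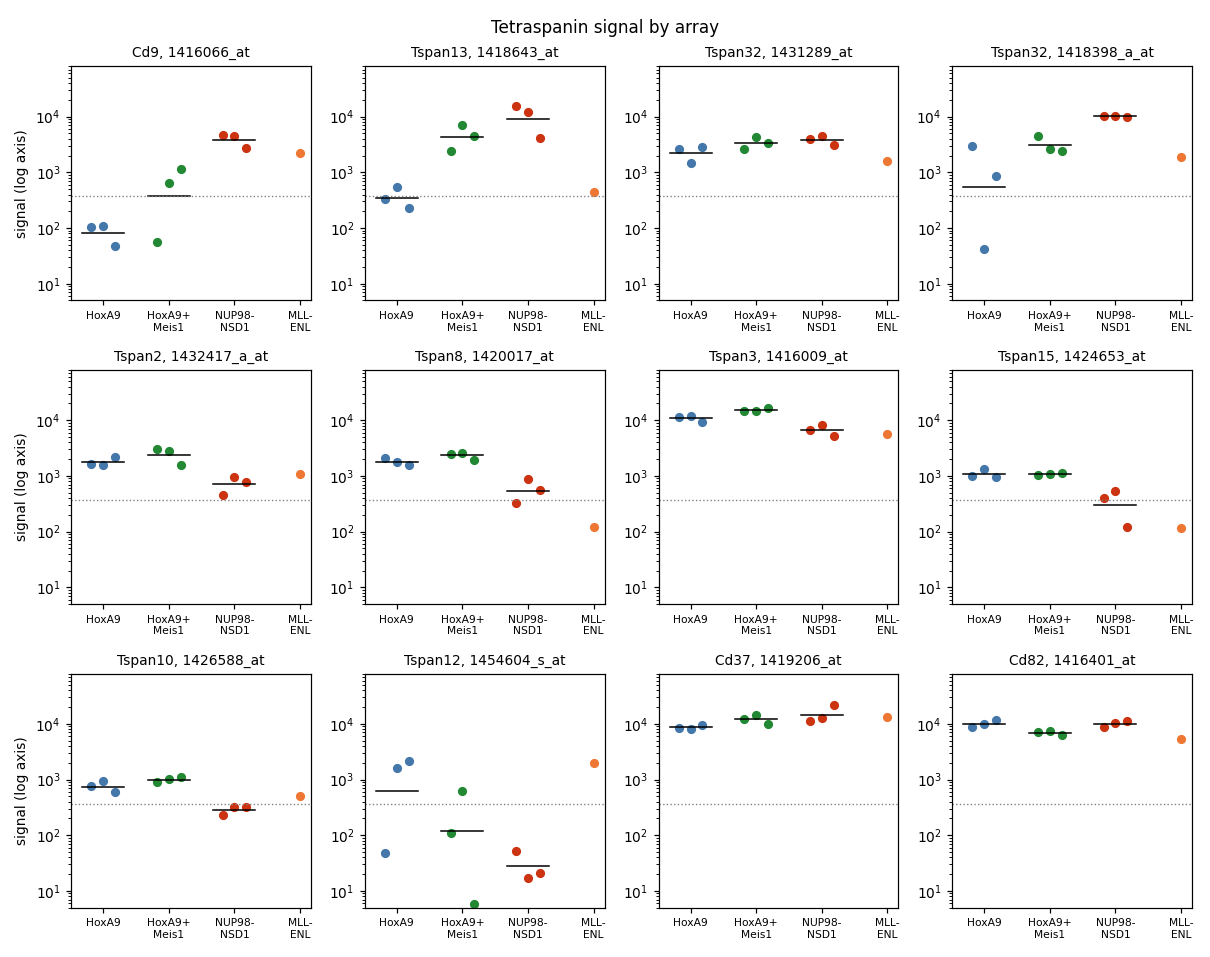
Signal of 12 tetraspanin probe sets on each array (log axis), drawn as for the integrins: points are arrays, bars back-transformed group means, and the dotted line is the level of 369. Cd9 is high on all 4 fusion arrays, Tspan13 is dim in HoxA9 and MLL-ENL, the paired Tspan32 panels differ in HoxA9, and Tspan2, Tspan8, Tspan3, Tspan15 and Tspan10 are lower in every NUP98-NSD1 clone than in any HoxA9 or HoxA9+Meis1 clone.

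Cd37 and Tspan32 are tetraspanins of blood cells, and both restrain lymphocyte responses. Cd37 read 8379.6, 8171 and 9381 in HoxA9, 12106, 14685 and 9831 in HoxA9+Meis1, 11361, 12574 and 21569.6 in NUP98-NSD1 and 13463 with MLL-ENL. On this probe set, 1419206_at, HoxA9 was the lowest group without overlap, and NUP98-NSD1 clone 3 stood above all other arrays. Cd37 rose there by 0.75 (SE 0.22, adjusted p = 0.0275) against HoxA9. The value was 0.47 without NUP98-NSD1 clone 3. The call was lost without HoxA9 clone 1 (adjusted p = 0.0659) or clone 2 (0.0797) and in the mean of its probe sets (0.0955). Its other passing probe set, 1425736_at, read 3829, 4891 and 5272 in HoxA9 and 3739, 3904 and 3063 in HoxA9+Meis1. It read 4653, 4592 and 6278 in NUP98-NSD1 and 3845 with MLL-ENL. HoxA9 overlapped both other clone groups on 1425736_at, and NUP98-NSD1 differed from it by 0.15 without a call. Tested alone, 1425736_at rose by 0.52 (SE 0.17, adjusted p = 0.0396) in NUP98-NSD1 against HoxA9+Meis1. Tspan32 read 2636, 1443 and 2841 in HoxA9 and 3990, 4558 and 3036 in NUP98-NSD1 on its brightest probe set, 0.77 (adjusted p = 0.0559) and not called. On 1418398_a_at it read 3001, 42.1 and 873 in HoxA9, 4458, 2613 and 2429.8 in HoxA9+Meis1, 10304, 10234 and 9887 in NUP98-NSD1 and 1858 with MLL-ENL, so the HoxA9 clones spread widely and the NUP98-NSD1 clones almost coincided. Tested alone it rose by 4.11 (SE 0.99, adjusted p = 0.0117) against HoxA9.

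Cd81, Cd82 and Cd151 are broadly expressed tetraspanins, Cd82 being known as a suppressor of cell motility and Cd151 as a close partner of laminin-binding integrins. Cd82 read 8756, 9972 and 11916 in HoxA9, 7122, 7389 and 6198 in HoxA9+Meis1, 8618, 10285 and 11333 in NUP98-NSD1 and 5350.4 with MLL-ENL on 1416401_at, where HoxA9+Meis1 and MLL-ENL lay below the other arrays. It rose by 0.54 (SE 0.14, adjusted p = 0.0153) in NUP98-NSD1 against HoxA9+Meis1, while 1449611_at, with 2727, 4014 and 2500.5 in HoxA9+Meis1 and 1432, 1203 and 966 in NUP98-NSD1, fell by 1.32 (SE 0.23, adjusted p = 0.00219). Cd82 was the 1 gene of 23 with several passing probe sets in which both directions were called in a comparison, and the mean of its probe sets was -0.39 (adjusted p = 0.0677). Against HoxA9, 1449611_at fell by 1.34 where 1416401_at differed by -0.02. The call that Cd82 fell by 0.56 (adjusted p = 0.0332) in HoxA9+Meis1 against HoxA9 was lost in 5 of 6 omissions of a clone, all but HoxA9 clone 1 (adjusted p 0.0675 to 0.114), and with the common median (0.201). MLL-ENL fell by 0.90 (adjusted p = 0.0316) against NUP98-NSD1; the p was 0.0796 without clone 2 and 0.25 with the common median, and the rise against HoxA9+Meis1 had 0.0527 without HoxA9+Meis1 clone 3.

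Cd81, a partner of Igsf8, read 26714, 23227 and 25246 in HoxA9, 24638, 31406 and 31409 in HoxA9+Meis1, 21180.5, 18578 and 23901 in NUP98-NSD1 and 24195 with MLL-ENL. NUP98-NSD1 lay below HoxA9+Meis1 in every clone and Cd81 fell by 0.46 (adjusted p = 0.0168) there; the call was lost with the common median (-0.30, adjusted p = 0.273) and without HoxA9+Meis1 clone 2 (0.0661) or 3 (0.0578) or NUP98-NSD1 clone 2 (0.0613). Cd151 had no call on any of its 6 probe sets; the one that stands for the gene read 3434 to 6924 over all arrays.

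TspanC8 tetraspanins, which escort Adam10, were represented by Tspan5, Tspan10, Tspan14, Tspan15 and Tspan17, and Tspan33 did not pass. Tspan15 read 1002, 1359.6 and 973 in HoxA9, 1029, 1068 and 1122 in HoxA9+Meis1, 405, 546 and 122 in NUP98-NSD1 and 118 with MLL-ENL, so all fusion arrays lay below all others. It fell by 1.74 (SE 0.45, adjusted p = 0.0159) against HoxA9 and fell by 1.70 (SE 0.45, adjusted p = 0.0166) against HoxA9+Meis1; the former call was lost without HoxA9 clone 2 (adjusted p = 0.0619). Tspan10 read 753, 935 and 586 in HoxA9, 895, 1012 and 1103 in HoxA9+Meis1, 226, 323 and 316 in NUP98-NSD1 and 499.8 with MLL-ENL, with all NUP98-NSD1 clones under the level of 369. It was at least 1.94-fold lower than in HoxA9, with a log2 difference of -1.29 (adjusted p = 0.00919) and at least 2.57-fold lower than in HoxA9+Meis1, with one of -1.70 (adjusted p = 0.00217).

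Tspan17 read 2773, 2623 and 2199 in HoxA9, 1896, 1048 and 1129 in HoxA9+Meis1, 1727, 1232 and 1608 in NUP98-NSD1 and 1701 with MLL-ENL, HoxA9 being above all other arrays. Tspan17 fell by 0.73 (adjusted p = 0.0454) in NUP98-NSD1 and fell by 0.93 (adjusted p = 0.0414) in HoxA9+Meis1. The first call was lost on leaving out any 1 of its 6 clones (adjusted p 0.0521 to 0.135), and the second without any clone other than HoxA9+Meis1 clone 1 (0.0696 to 0.151); with the common median they had 0.172 and 0.0969. Its other probe set, 1424334_at, fell by 1.39 (adjusted p = 0.00673) in NUP98-NSD1 against HoxA9 when tested alone. Tspan5 and Tspan14 had no call, with signals of 3735 to 5889.5 and 7581 to 11780.1. Adam10 itself, at 22093 to 31507 over the 10 arrays, was not called in any comparison.

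Tspan8, Tspan2 and Tspan3 also fell in NUP98-NSD1 against both HoxA9 groups, as Tspan15 and Tspan10 did. Tspan8, known as an integrin partner of carcinoma cells, read 2070.1, 1757 and 1543 in HoxA9, 2519.9, 2588 and 1954 in HoxA9+Meis1, 324, 884 and 556 in NUP98-NSD1 and 120.3 with MLL-ENL. These values come from 1420017_at, where the fusion arrays did not overlap the others. Of the 3 passing Tspan8 probe sets, only this one was called in any comparison. Against HoxA9, 1455709_at and 1420019_at differed by -0.89 and -0.54 in NUP98-NSD1, with overlap and no call. The following differences are those of 1420017_at. Tspan8 fell by 1.65 (SE 0.33, adjusted p = 0.00457) against HoxA9 and fell by 2.04 (SE 0.33, adjusted p = 0.00141) against HoxA9+Meis1, and MLL-ENL fell by 1.92 (adjusted p = 0.0451) against NUP98-NSD1, at least 1.44-fold. That last call was lost without NUP98-NSD1 clone 2 (adjusted p = 0.0741) and with quantile normalization (0.132), the common median (0.109), an offset of 100 (0.0676) and no filter (0.0567); the mean of probe sets gave -1.03 against HoxA9 (adjusted p = 0.055) and -0.50 for MLL-ENL (0.639).

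Tspan2, best known from oligodendrocytes, read 1649, 1558 and 2189.5 in HoxA9, 3016, 2848 and 1572 in HoxA9+Meis1, 459, 950.5 and 789.8 in NUP98-NSD1 and 1090.2 with MLL-ENL. The NUP98-NSD1 clones lay below all 6 others, and Tspan2 fell by 1.30 (SE 0.32, adjusted p = 0.013) against HoxA9 and fell by 1.72 (SE 0.32, adjusted p = 0.00323) against HoxA9+Meis1. Without HoxA9 clone 3 the first had an adjusted p of 0.0502, and the mean of probe sets gave -0.91 (0.145). Its other probe sets put HoxA9+Meis1 apart instead: 1424568_at read 239, 69.4 and 485 in HoxA9, 3775, 2396 and 837 in HoxA9+Meis1 and 58.1, 248 and 149.9 in NUP98-NSD1, and rose by 3.05 (SE 0.72, adjusted p = 0.0286) in HoxA9+Meis1 against HoxA9. Within HoxA9+Meis1 all 3 Tspan2 probe sets were lowest in clone 3, as was Itgax. Tspan3, a widely expressed tetraspanin, read 11639, 12154 and 9443 in HoxA9, 14500.5, 14842 and 16746 in HoxA9+Meis1, 6551, 8287 and 5182 in NUP98-NSD1 and 5569 with MLL-ENL. HoxA9+Meis1 was the highest group without overlap, and Tspan3 fell in NUP98-NSD1 by 1.22 (SE 0.16, adjusted p = 0.000564) against HoxA9+Meis1 and fell by 0.75 (SE 0.16, adjusted p = 0.00729) against HoxA9.

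Tspan6, Tspan18 and Tspan31 gave calls that were lost on leaving out single clones. Tspan6 read 1309.9, 1087 and 1287 in HoxA9, 1419, 1187 and 1512 in HoxA9+Meis1, 920.2, 402 and 727 in NUP98-NSD1 and 646 with MLL-ENL, and fell by 0.89 (adjusted p = 0.0452) and fell by 1.04 (adjusted p = 0.0234) in NUP98-NSD1 against HoxA9 and HoxA9+Meis1, with every NUP98-NSD1 clone below the 6 others. The first call was lost in 5 of 6 omissions, all but NUP98-NSD1 clone 1 (adjusted p 0.052 to 0.113), and the second without HoxA9+Meis1 clone 1 (0.0693) or 3 (0.0705) or NUP98-NSD1 clone 2 (0.0523); the common median ended both (0.123 and 0.0571). Tspan18, a tetraspanin of endothelium and platelets, read 1524, 1613 and 1329 in HoxA9, 1051, 1078 and 1234 in HoxA9+Meis1, 1008, 968 and 585 in NUP98-NSD1 and 139.8 with MLL-ENL on 1442174_at, stepping down without overlap. On its other passing probe set, 1429856_at, the clone groups overlapped. The differences there were 0.08 in NUP98-NSD1 against HoxA9 and -0.77 with MLL-ENL against NUP98-NSD1, neither called. On 1442174_at Tspan18 fell by 0.81 (adjusted p = 0.0378) in NUP98-NSD1 against HoxA9, a call lost without any 1 HoxA9 clone (0.0964, 0.119 and 0.0674 for clones 1, 2 and 3) or without NUP98-NSD1 clone 3 (0.0749). MLL-ENL fell by 2.33 (SE 0.37, adjusted p = 0.00775) against NUP98-NSD1, at least 2.15-fold, and kept that call under each omission of a clone. Tspan31 had the smallest called difference, with 19636, 20852 and 19163 in HoxA9 and 23677, 25100.1 and 23731 in NUP98-NSD1, where it rose by 0.28 (adjusted p = 0.026) with no overlap; without HoxA9 clone 1 or 3 or NUP98-NSD1 clone 2 the p was 0.0662, 0.0805 and 0.08, with the common median 0.0575, and the mean of its probe sets was -0.15 (0.439).

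Tspan12, an organiser of the frizzled receptor that binds norrin, was the member with the widest spread and had no call. It read 47.5, 1609.8 and 2173 in HoxA9, 108, 628 and 5.85 in HoxA9+Meis1, 52.3, 17.0 and 21.3 in NUP98-NSD1 and 1979 with MLL-ENL. Thus HoxA9 clones 2 and 3 and MLL-ENL were bright, while HoxA9 clone 1 and all NUP98-NSD1 clones were near background. NUP98-NSD1 differed from HoxA9 by -3.45 (SE 1.30, adjusted p = 0.0667), at least 1.65-fold lower, and MLL-ENL from NUP98-NSD1 by 5.06 (SE 1.84, adjusted p = 0.157), at least 5.01-fold higher. Tspan4 and Tspan9 were called in no comparison, with 4462 to 7883 and 852 to 1516 over the 10 arrays.

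Over single probe sets, 13 of 83 member probe sets were called higher and 15 lower in NUP98-NSD1 against HoxA9, 7 and 20 against HoxA9+Meis1, 12 and 3 in HoxA9+Meis1 against HoxA9, and 2 and 6 with MLL-ENL against NUP98-NSD1. In the same order, 29.0%, 30.9%, 6.89% and 3.98% of all probe sets tested alone were called. Of the 23 genes with several passing probe sets, 4, 3, 3 and 1 had more than 1 called in the same direction in these comparisons, among them Itga4, Itgb1, Tspan13 and Itga1. Neither this count nor that of genes called in both directions was made over all genes, so they are no result about the members. Probe sets of 1 gene can read different transcript ends, and their positions were not used here. The plot of single probe sets shows the Itga4 and Tspan13 probe sets on the same side against HoxA9 and the opposite sides taken by those of Cd82 and Itgb5.

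**Figure D4:**
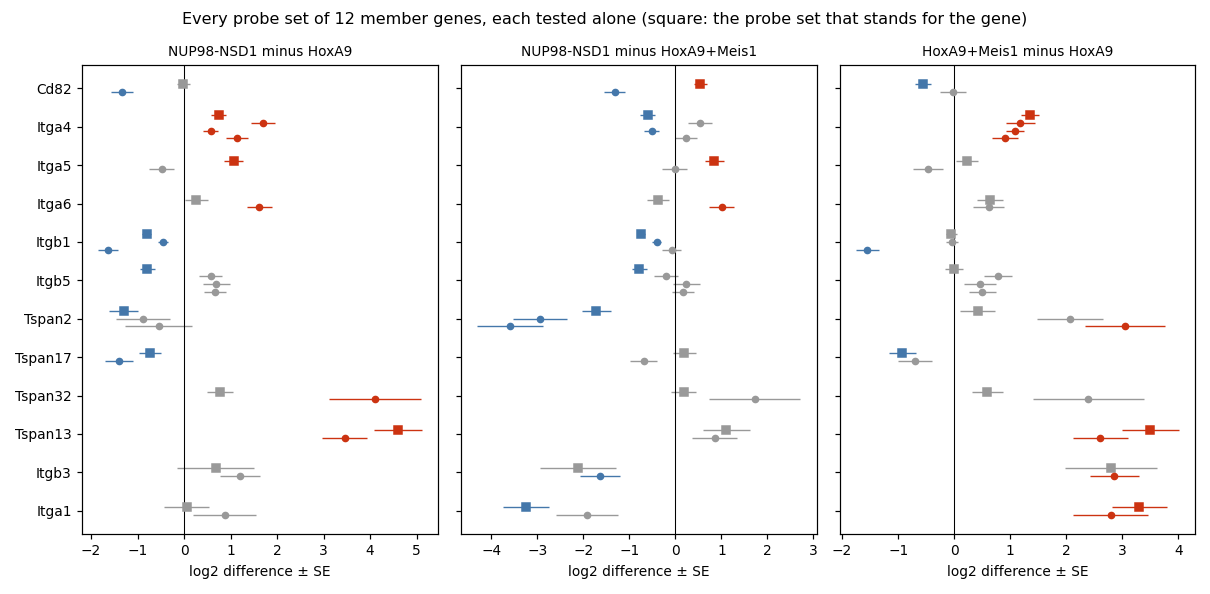
Log2 difference of every passing probe set of 12 member genes in the 3 comparisons of clone groups, each tested alone, with bars of 1 SE on each side; squares are the probe sets that stand for the gene and circles the others (red called higher, blue called lower, grey not called). All 4 Itga4 probe sets are red in the outer panels, and in the middle panel the Cd82 square is red and its circle blue.

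Around the members, 28 of 34 listed integrin adaptors and activators were measured. Their counts and those of the lists after them are to be read beside the shares of all genes called, 31.5% for NUP98-NSD1 over HoxA9, 32.4% for NUP98-NSD1 over HoxA9+Meis1, 9.67% between the HoxA9 groups and 4.80% for MLL-ENL over NUP98-NSD1. Against HoxA9, 9 rose and 5 fell in NUP98-NSD1; the largest was Fyb, the adaptor that links immune receptors to integrin activation, with 189.5, 189 and 1123 in HoxA9 and 5918, 5363 and 3030.1 in NUP98-NSD1, up by 3.59 (adjusted p = 0.00128). Talin 1 (Tln1), which opens integrins from inside, rose by 0.79 (adjusted p = 0.00268) in the same comparison and by 0.71 against HoxA9+Meis1, and Ilk, an adaptor at integrin tails, fell by 0.93 against HoxA9. Against HoxA9+Meis1, 8 rose and 2 fell, led by the actin crosslinker Actn1 at 3.58, and between the HoxA9 groups 4 rose and 2 fell. Actn1 read 9261, 6217 and 6123 in HoxA9, 433, 1030.2 and 929 in HoxA9+Meis1, 7669, 8364 and 12448 in NUP98-NSD1 and 3685 with MLL-ENL, and fell by 3.19 (adjusted p = 0.000271) in HoxA9+Meis1 against HoxA9, with those clones far below all other arrays. With MLL-ENL against NUP98-NSD1, Rsu1 rose by 0.61 and Parvg, another tail adaptor, fell by 0.51. The list's median differences were 0.28, 0.04, 0.08 and -0.06 for NUP98-NSD1 over HoxA9, for NUP98-NSD1 over HoxA9+Meis1, between the HoxA9 groups and for MLL-ENL over NUP98-NSD1, beside -0.14, -0.13, -0.02 and -0.02 over all genes.

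Of 25 integrin ligands and counter-receptors, 15 were measured, and those called higher and lower numbered 2 and 3 in NUP98-NSD1 against HoxA9, 2 and 4 against HoxA9+Meis1, 1 and 1 in HoxA9+Meis1 against HoxA9, and 0 and 0 with MLL-ENL. Their medians were 0.28, 0.08, 0.17 and -0.54. Thbs1, a matrix protein bound by several integrins and by Cd47, read 22385, 46734 and 47589 in HoxA9, 945, 1865 and 8415 in HoxA9+Meis1, 9079, 9755 and 11851 in NUP98-NSD1 and 14863 with MLL-ENL. Every HoxA9 clone lay above all others, and Thbs1 fell by 3.88 (adjusted p = 0.00402) in HoxA9+Meis1 and fell by 1.85 (adjusted p = 0.0462) in NUP98-NSD1. Fibronectin (Fn1) rose by 1.50 (adjusted p = 0.0189) in NUP98-NSD1 against HoxA9, with 2333, 1964 and 5062 in its clones, and Vcam1 by 1.76 (adjusted p = 0.0249) against HoxA9+Meis1, with 1410.5, 1475 and 5478; both peaked in clone 3. Of 14 tetraspanin partners 10 were measured, with 3 higher and 2 lower, 2 and 1, 2 and 0, and 0 and 0 in the same order and medians of 0.21, -0.17, 0.12 and 0.13. Igsf8, the partner of Cd9 and Cd81, fell in NUP98-NSD1 by 0.55 (adjusted p = 0.00828) against HoxA9 and fell by 0.96 (adjusted p = 0.00046) against HoxA9+Meis1. Cd53, a leukocyte tetraspanin outside the naming pattern, rose by 0.57 (adjusted p = 0.00104) and 0.36 (adjusted p = 0.00988) there, and Rom1, a tetraspanin of photoreceptors, by 2.05 (adjusted p = 0.0457) in HoxA9+Meis1 against HoxA9, at least 1.68-fold. With Upk1a and Upk1b these 4 further family members counted 1 higher and 1 lower, 1 and 1, 1 and 0, and 0 and 0, with medians of -0.30, -1.11, 0.48 and 0.28.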

How the data were processed

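Total RNA of 10 cultures was labelled with biotin and hybridised to 1 array each, per the labels' protocols. The deposited values are linear signal intensities, 1 per probe set, and their 2% trimmed mean is the same on every array, as after scaling to a common target; the software is not given in the sources used here, and such scaling turns any difference in total RNA into a relative one. GEO's platform annotation gave 1 symbol to 34945 of 45101 probe sets, several to 932 and none to 9160, and 64 were controls.

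Probe sets above the 40th percentile of all signals (369) on at least 3 of 10 arrays were kept, the brightest on average standing for its gene. Signals were analysed as log2(signal + 32) with limma 3.58.1 in R 4.3.3: 4 group means, a mean-dependent prior spread, 6 residual degrees of freedom and Benjamini-Hochberg adjustment over 14233 genes, tested on simulated data; single probe sets were adjusted over 30945. Members with several probe sets were also tested by each. Every member could be named, with called genes of the pathway lists and markers that moved with a result. The members and all lists were chosen with earlier results of these data known. Alternatives covered scaling, offset, filter, probe set choice, model and the omission of each clone. Clone numbers, shared by the 3 clone groups, did not pair the samples. Promoters were searched with Python 3.11.15 and figures drawn with matplotlib 3.10.9.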

Additional observations from a re-analysis of the deposited data

How the results depend on the processing

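Of 50 called member differences, 14 alternatives other than omissions gave 687 values: 608 kept direction and call, 71 kept direction but lost the call and 8 reversed. Omitting single clones gave 282 values, of which 227 kept the call, 55 lost it and 0 reversed. The reversals came with other probe sets. With probe sets averaged by gene they were Itgb5 at 0.29 and Tspan31 at -0.15 in NUP98-NSD1 against HoxA9, Cd82 at -0.39 against HoxA9+Meis1 and Itgav at 0.19 in HoxA9+Meis1 against HoxA9. Without _x_at, _s_at and _a_at probe sets they were Itga5 at -0.48 and Itgb5 at 0.70 against HoxA9, and Itga5 at -0.017 and Itgb5 at 0.24 against HoxA9+Meis1.

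Some counts of called members moved by more than 1.5 times. NUP98-NSD1 against HoxA9 had 7 lower with the mean of probe sets, and against HoxA9+Meis1 2 higher with it. HoxA9+Meis1 against HoxA9 had 0 lower with the common median or without the mean-dependent prior, and 1 lower without the filter or with the mean of probe sets. MLL-ENL against NUP98-NSD1 had 0 higher with quantile normalization, an offset of 1, a filter at the 60th percentile or the compared groups alone, and 2 higher with the common median or the mean of probe sets; it had 3 lower with quantile normalization, an offset of 100, no filter or no mean-dependent prior, 2 with the common median or the mean of probe sets, and 1 with the compared groups alone. The cause was not tested. Omitting 1 clone gave 5 to 10 higher and 7 to 11 lower in the first comparison, 3 to 8 and 11 to 13 against HoxA9+Meis1, 5 to 7 and 0 to 1 between the HoxA9 groups, and 1 higher and 2 to 7 lower with MLL-ENL.

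Same-numbered clones did not deviate together (r of -0.07 to 0.04 between groups), so the shared number is not taken as pairing. The replicate block, with the clone number as a term, gave 6 higher and 11 lower against HoxA9, 4 and 13 against HoxA9+Meis1, and 5 and 2 between the HoxA9 groups; it ended 3 calls, Tspan31 against HoxA9 (adjusted p = 0.0509), Itgb7 against HoxA9+Meis1 (0.0648) and Itgav between the HoxA9 groups (0.0845). Dim members are limited by background: below a signal of 369, folds are bounds, and the lone MLL-ENL array has no replicate.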

Other observations

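Markers of other cell types were set beside the members as values. In MLL-ENL against NUP98-NSD1, 5 of 10 neutrophil markers and 6 of 10 mast cell and basophil markers were called lower and 0 higher (limma, Benjamini-Hochberg adjusted), and 1 of 9 monocyte and macrophage markers was higher and 3 lower. The B cell list, of which 7 of 8 markers were measured, had 0 higher and 1 lower in NUP98-NSD1 against HoxA9. In HoxA9+Meis1 against HoxA9, 0 were called. The list summed to 3489 to 14598 in HoxA9+Meis1 and 2743 to 3875 in HoxA9, so the lowest HoxA9+Meis1 sum lay inside the HoxA9 range. Of 8 T and NK cell markers, 2 were measured and none was called in any comparison. Among 5 measured erythroid markers 1 was higher in NUP98-NSD1 against each HoxA9 group. Of 8 stroma and endothelium markers 1 was higher and 3 lower in NUP98-NSD1 against HoxA9; 1 of them, Epcam, is also on the list of tetraspanin partners, and Col1a1 also on that of integrin ligands. Of the 8 megakaryocyte and platelet markers on the array 5 passed the level, and 1 was called higher and 1 lower in NUP98-NSD1 against each HoxA9 group.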
